A study of Mus musculus with 21 samples.

Results

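The diet by renin interaction in mouse heart is a comparison of differences. It takes the difference between renin and null vector hearts in mice on a high-fat diet and subtracts the difference between renin and null vector hearts in mice on chow. All 21 of the 21 heart libraries of the series entered it, and its groups came from the diet and treatment in the sample titles, not from measured values. The mice were male C57BL/6NJ, aged 8 to 10 weeks at the start, and ate chow or, for 10 weeks, a high-fat diet (60% of kcal as fat). They received an AAV (adeno-associated virus, a gene delivery vector) carrying renin, or were controls without renin, and hearts were frozen 6 weeks after the injection behind the eye. Chow mice gave 4 hearts without renin, called chow control, and 6 with it, called chow renin. Mice on the high-fat diet gave 6 hearts without renin, called fat-fed control, and 5 with it, called fat-fed renin. For the groups without renin the titles read novirus and the series text reads null vector, so which of these the control mice received cannot be told apart here. The term null vector stands for these groups in either case. The promoter of the vector, its dose and the part of the heart that was ground are not given in the sources used here. The interaction was tested in 15216 genes, and 5561 of them had a mean of at least 20 CPM (counts scaled to a common library size) over the 21 libraries. The description below turns on those 5561 genes.

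Renin is the enzyme that starts the renin-angiotensin-aldosterone cascade, in which angiotensinogen is cut to angiotensin I and then, by angiotensin-converting enzyme, to angiotensin II. Angiotensin II constricts vessels, raises blood pressure and acts on heart muscle and on fibroblasts. A heart that pumps against a high pressure is known to thicken, to switch on fetal forms of actin and myosin, and to lay down matrix, and obesity is known to add a metabolic load through fatty acids. The series was set up to compare hearts that had both loads with hearts that had either alone, to model HFpEF, a heart failure in which the ejection fraction is preserved. An interaction on the log2 scale asks whether the change with renin differed between the diets. A value of 0 means that renin multiplied the level of a gene by the same factor on both diets. A positive value can come from a larger rise on the high-fat diet or from a fall on chow, so the parts are given beside each interaction.

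Libraries held 18743226 to 29265430 estimated reads, and the 4 chow control libraries (at most 21414093) were all shallower than the other 17 (at least 22805569). Ren1, the mouse renin gene, had 0 to 5 estimated reads in a library and 8 in all 21 together, in the order 0, 1, 5 and 2 reads over chow control, chow renin, fat-fed control and fat-fed renin, so heart RNA gives no check of the renin label. All 12 genes of a list of cardiomyocyte identity reached 20 CPM, and their summed level was 61114 to 73360 CPM in the chow control group, 55197 to 59398 in chow renin, 56231 to 66808 in fat-fed control and 52170 to 56931 in fat-fed renin. A score of 34 central nervous markers (the mean log2 CPM of neuron, oligodendrocyte and astrocyte genes, all 34 of which passed the low count filter) was 3.13 to 3.82 in the 6 chow renin libraries and 1.4 to 2.23 in the other 15. The nervous score thus moved with a group of the interaction: 91.2% of its variance lay between the 4 groups. A score of 6 atrial markers was above 1 in 6 libraries, at least 1 in each group (chow control 3, chow renin 1, 3 and 5, fat-fed control 3 and fat-fed renin 3), and at most 0.64 in the others. A clock score, the log2 level of 4 clock genes of one phase (such as Arntl) minus that of 8 of the opposite phase (such as Dbp), had 66.9% of its variance between groups, and its highest value, -2.39, was in fat-fed renin 1. The part of these markers in the results below was not tested, except where a value is given.

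**Figure D1:**
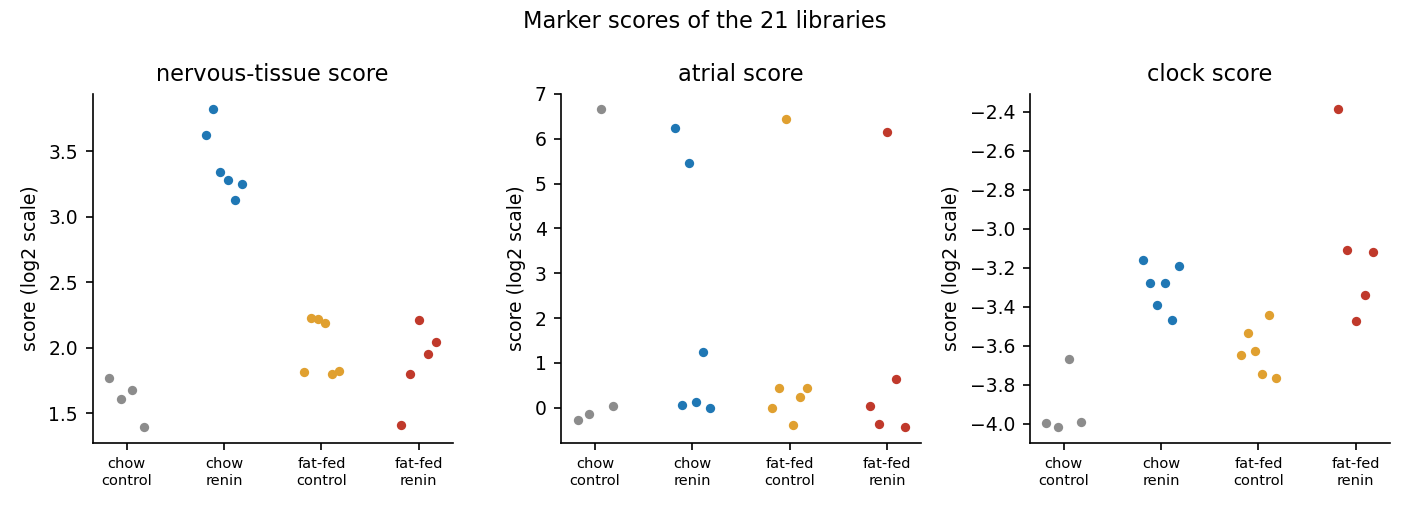
Marker scores (vertical axes, log2 scale) of the 21 libraries by group, 1 point per library. The 6 chow renin libraries lie above all others in the nervous score (3.13 to 3.82 against 1.4 to 2.23), 6 libraries spread over the 4 groups have an atrial score above 1, and fat-fed renin 1 has the highest clock score.

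Among genes of at least 20 CPM, 439 of 5561 (7.89%) were called in the interaction at an adjusted p under 0.05 (edgeR quasi-likelihood F test, Benjamini-Hochberg over all 15216 genes). Of these, 343 (6.17% of the 5561) had a positive interaction and 96 (1.73%) a negative one. In all 15216 genes 1589 were called (10.4%), 478 higher (3.14%) and 1111 lower (7.3%). The balance turned around with the level of the gene: of the 9655 genes under 20 CPM, 1150 were called (11.9%), 135 higher (1.4%) and 1015 lower (10.5%). Within the genes of at least 20 CPM the share of higher calls was 5.08% at 20 to 50 CPM, 5.82% at 50 to 100 CPM, 9.07% at 100 to 300 CPM and 11% above 300 CPM. The share of lower calls over the same steps was 2.27%, 1.45%, 0.605% and 0.333%. All 343 higher calls and 95 of the 96 lower ones were protein-coding genes, as were 99.5% of the 5561. In bulk tissue such as this, fewer cells of a type and less RNA per cell cannot be told apart.

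The parts of the interaction were unequal in size. At 20 CPM or more, renin on chow gave 121 genes higher (2.18%) and 393 lower (7.07%), and renin on the high-fat diet gave 518 higher (9.31%) and 502 lower (9.03%). The high-fat diet without renin gave 1 gene higher (0.018%) and 2 lower (0.036%), while the diet difference among renin hearts gave 1012 higher (18.2%) and 271 lower (4.87%). These parts share groups with the interaction, so they are given beside it and not as separate support. A typical higher call had a small fall on chow and a rise on the high-fat diet: the median interaction of the 343 was 0.44 on the log2 scale, from a median of -0.16 on chow and 0.27 on high fat. Over all 5561 genes the median renin difference was -0.07 on chow and -0.002 on high fat. The 343 and the 96 were selected by their interaction, and that selection by itself favours the signs and the order of group means given next. Those shares are therefore a description of the calls and no separate support. The sign of the renin difference was negative on chow and positive on the high-fat diet in 310 of the 343 (90.4%), against 32.0% of all 5561 genes. Fat-fed renin had the highest of the 4 group means in 284 of them (82.8%, against 36.9% of all), and chow renin had the lowest in 226 (65.9%, against 44.2%). In 35 of the 343 every fat-fed renin library lay above every other library, as it did in 55 of the 5561 (0.989%). The 96 lower calls had a median interaction of -0.66, from 0.44 on chow and -0.16 on high fat. Chow renin had the highest mean in 70 of them (72.9%, against 8.6% of all), and in 49 every chow renin library lay above every other library, as in 60 of the 5561 (1.08%). Differences of group means on the plain CPM scale had the same sign as the log2 interaction in 343 of 343 and 96 of 96, as in 5494 of all 5561 genes.

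**Figure D2:**
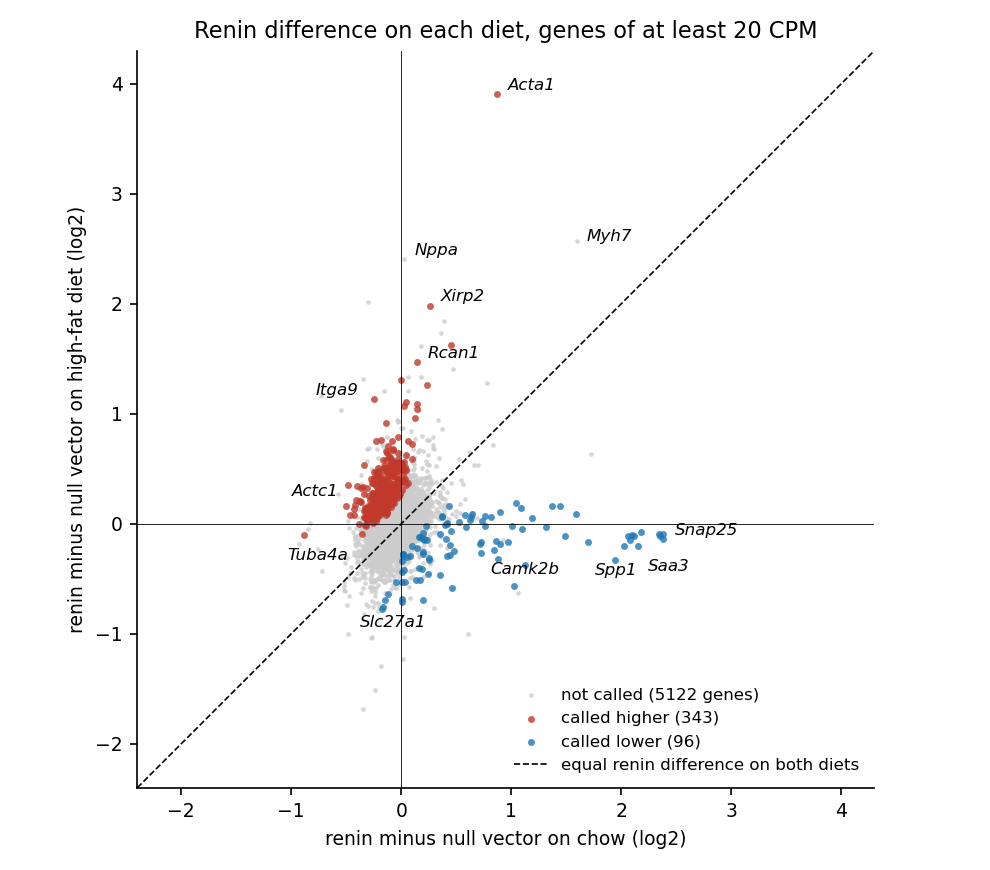
Each point is 1 of the 5561 genes of at least 20 CPM; the horizontal axis is the renin minus null vector difference on chow and the vertical axis the same difference on the high-fat diet (both log2, edgeR). The 343 genes called higher (red) lie above the dashed line of equal differences, most of them left of and above 0, and the 96 called lower (blue) spread to the right along a difference near 0 on the high-fat diet.

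The 5 fat-fed renin hearts were not alike. Fat-fed renin 1 was the highest of the 5 in 237 of the 343 higher calls (69.1%, against 31.9% of all genes of at least 20 CPM), and fat-fed renin 4 was the lowest in 190 (55.4%, against 28.5%). Left out in turn, single libraries moved the 343 by more than 1.5 times in 6 cases: 135 higher genes were called without fat-fed renin 1, 159 and 168 without chow control 1 and 2, 178 and 182 without chow renin 1 and 3, and 528 without fat-fed renin 4. Of the 343, 116 were called in each of the 21 fits that left out 1 library, and so were 69 of the 96 lower calls. Without the 6 libraries of high atrial score, a setting chosen after the data were seen, 117 genes were called higher and 72 lower. Among genes given below, Ttn, Klhdc8a, Rcan2, Tgfb3, Slc27a1, Ugp2, Tubb4b, Tbx20, Cryab, Fn1, Slc8a1 and Pgk1 lost their calls there, besides those for which this is said. With upper-quartile scaling in place of TMM the split was 202 higher and 125 lower, and in a fit of the genes of at least 20 CPM alone it was 70 higher and 99 lower. In that last fit the calls of Rcan1, Rcan2, Col8a1, Col4a1, Col4a2, Loxl2, Klhdc8a, Ttn, Tgfb3, Ace, Plin4, Slc27a1, Gbe1, Pfkp, Ugp2, Pgk1, Calr, Hsp90b1, Hspd1, Hspb1, Des, Tuba4a, Tubb4b, Tbx20, Psme4, Lamc1, Cd34, Cryab, Fn1 and Slc8a1 were lost, so that 30 of the higher and lower calls given below did not hold there. With the nervous score as a covariate 0 genes of at least 20 CPM were called higher and 9 lower, all 9 of them among the 96. No higher call described below was kept with that covariate, and since the score separates chow renin from the other groups, the 2 cannot be told apart.

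Skeletal alpha-actin, Acta1, is the fetal actin form that loaded heart muscle is known to switch on again, and it had the highest interaction of all protein-coding genes called at 20 CPM or more. Its gene (ENSMUSG00000031972) lies on the minus strand of chromosome 8, 123891769 to 123894751 in GRCm38. Chow control libraries measured 194, 251, 422 and 142 CPM. Chow renin libraries ranged from 41.9 to 724 CPM with a median of 505, and the low value was chow renin 6. High-fat control libraries ranged from 56.5 to 184 CPM with a median of 98.0. Fat-fed renin libraries measured 2499, 1840, 785, 670 and 2291 CPM. The fat-fed renin values did not overlap those of fat-fed control, and only the 670 CPM heart lay below the highest chow renin heart. Renin raised Acta1 by 3.91 (log2, SE 0.57, edgeR adjusted p 0.00106) on the high-fat diet, while the difference on chow was 0.87 (SE 0.57, edgeR adjusted p 0.388). The interaction was 3.04 (SE 0.76, edgeR adjusted p 0.0145), and it was called in 21 of 21 fits that left out a library but not in the fit without the 6 libraries of high atrial score. As a share of Acta1 plus cardiac actin Actc1 on the TPM scale, which is per transcript length, Acta1 was 3.09% ± 1.85 in chow control, 7.01% ± 3.41 in chow renin, 1.52% ± 0.700 in fat-fed control and 16.4% ± 6.79 in fat-fed renin (SD, n = 4, 6, 6 and 5).

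Cardiac actin itself, Actc1, the main actin of adult heart muscle, had a positive interaction of another make. It was 8639 ± 1175 CPM in the chow control group, 6096 ± 690 in chow renin, 7310 ± 1025 in fat-fed control and 8164 ± 759 in fat-fed renin. All 6 chow renin hearts (5061 to 6892 CPM) lay below all 4 chow control hearts (7189 to 9887 CPM). The fall on chow was -0.50 (log2, SE 0.11, edgeR adjusted p 0.00154), the difference on the high-fat diet was 0.16 (SE 0.10, edgeR adjusted p 0.332) and the interaction 0.66 (SE 0.15, edgeR adjusted p 0.00354). Titin, Ttn, the giant spring of the sarcomere, had an interaction of 0.42 (SE 0.12, edgeR adjusted p 0.0321) that was lost without fat-fed renin 1 or 5, fat-fed control 3, chow renin 1, 3, 4 or 5, or chow control 1 or 2. These 3 genes were the called members among 16 of an actin and myosin list at 20 CPM or more (6.17% of all genes were called higher), whose median interaction was 0.04 against 0.06 over all 5561 genes.

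Xirp2, which encodes an actin-binding protein of the intercalated disc and Z-disc, had the next highest interaction. It (ENSMUSG00000027022, plus strand of chromosome 2, 67446002 to 67526614) measured 262, 218, 240 and 169 CPM in chow control. Chow renin ranged from 232 to 299 CPM (median 267) and fat-fed control from 121 to 265 CPM (median 199). Fat-fed renin hearts measured 1251, 806, 456, 379 and 929 CPM, all 5 above every other heart. The renin difference was 0.26 (log2, SE 0.27, edgeR adjusted p 0.611) on chow and 1.98 (SE 0.25, edgeR adjusted p 0.000442) on the high-fat diet, an interaction of 1.72 (SE 0.36, edgeR adjusted p 0.00337). The call held in 21 of 21 fits with a library left out and without the 6 libraries of high atrial score. The sequences before the starts of Acta1 and Xirp2 are shown because these genes had the highest interactions and because the windows differ in the motifs they hold. Each is the 250 bases before the start listed by RefSeq on GRCm38.p6, 5′ to 3′ on the strand of the gene, at chr8:123894776-123895025 (minus) and chr2:67445752-67446001 (plus).
Acta1: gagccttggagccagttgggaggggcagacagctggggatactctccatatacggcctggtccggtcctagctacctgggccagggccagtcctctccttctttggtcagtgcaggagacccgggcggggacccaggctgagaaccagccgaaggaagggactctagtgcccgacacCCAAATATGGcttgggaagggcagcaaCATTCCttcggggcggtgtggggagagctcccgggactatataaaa
Xirp2: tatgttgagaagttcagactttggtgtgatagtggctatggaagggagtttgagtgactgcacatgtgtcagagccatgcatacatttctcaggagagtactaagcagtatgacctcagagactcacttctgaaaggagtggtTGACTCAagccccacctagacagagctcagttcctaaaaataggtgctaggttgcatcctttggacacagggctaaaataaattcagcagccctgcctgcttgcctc
Capitals mark matches to any of 4 motifs searched on both strands: M-CAT (CATTCC, bound by TEAD factors), the CArG box (bound by serum response factor), AP-1 (TGANTCA) and the kappaB site. Acta1 held a CArG box 73 bases and an M-CAT 46 bases before the start, and Xirp2 an AP-1 match 107 bases before it. Counted per gene over any of its listed starts, 1.62% of 27025 RefSeq genes held a CArG box in a window of this length, 14.4% an M-CAT, 7.82% an AP-1 match and 8.23% a kappaB site. Counted in the same way, among the 11 of the 12 genes of highest interaction that had a window, 1 held a CArG box, 1 an M-CAT, 2 an AP-1 match and 0 a kappaB site.

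**Figure D3:**
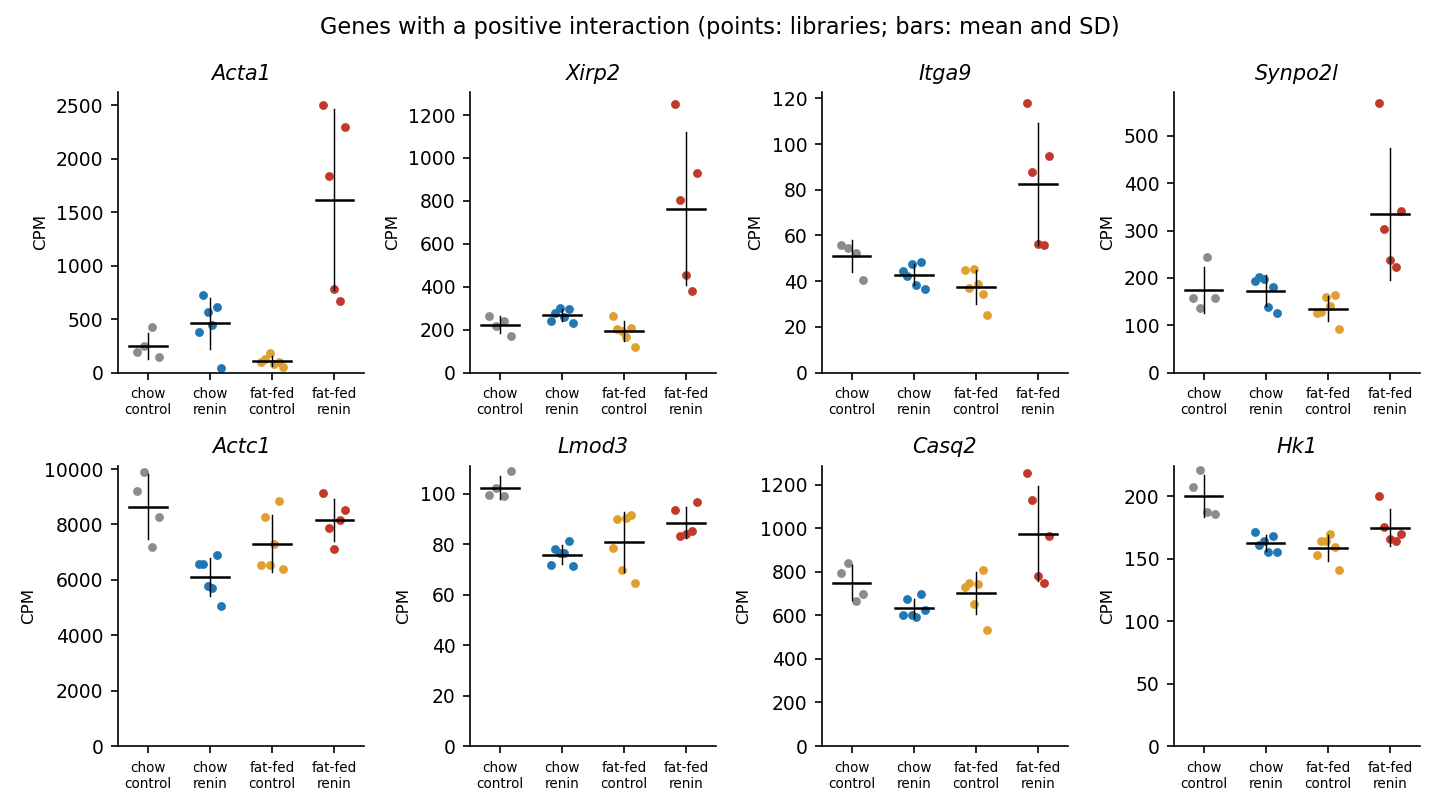
CPM (vertical axes, linear from 0) of 8 genes with a positive interaction in each library by group, with the group mean (horizontal bar) and SD (vertical bar). Acta1, Xirp2, Itga9 and Synpo2l are high in fat-fed renin, with the 5 hearts of that group spread widely, while Actc1, Lmod3 and Hk1 are lower in chow renin than in chow control.

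The mechanical stress list holds Z-disc, intercalated disc and thin-filament genes that respond to load. Of its 20 members at 20 CPM or more, 5 were called higher (6.17% of all 5561 genes were) and 0 lower. The interaction was positive in 19 of the 20, as in 63.4% of all 5561 genes, with a median of 0.41 against 0.06. The summed level of the 22 members that passed the low count filter was 12508 to 18323 CPM in fat-fed renin against 8506 to 11654 in fat-fed control, and 8792 to 12169 in chow renin against 10296 to 11706 in chow control. Besides Xirp2, the called members were Synpo2l, Flnc, Lmod3 and Cryab. Synpo2l, a Z-disc protein, was 174 ± 48.3, 173 ± 32.8, 135 ± 26.4 and 334 ± 140 CPM in chow control, chow renin, fat-fed control and fat-fed renin. Fat-fed renin values of Synpo2l were 569, 304, 237, 222 and 341 CPM, above all 6 fat-fed control hearts, and the interaction was 1.31 (SE 0.33, edgeR adjusted p 0.0135). Filamin C (Flnc), which links actin to the membrane and Z-disc, was 463 ± 29.7 CPM in chow renin and 457 ± 84.1 in fat-fed control but 787 ± 192 in fat-fed renin. Its interaction was 0.82 (SE 0.19, edgeR adjusted p 0.00633), lost without the 6 libraries of high atrial score. Leiomodin 3 (Lmod3), which nucleates thin filaments, repeated the make of Actc1: 103 ± 4.58 CPM in the chow control hearts, 76.0 ± 3.83 in chow renin, 80.9 ± 11.8 in fat-fed control and 88.6 ± 6.03 in fat-fed renin, with an interaction of 0.56 (SE 0.11, edgeR adjusted p 0.00129). Every chow renin heart was below every chow control heart for Lmod3. Cryab, the small heat shock protein alpha-B-crystallin, was named after its value was seen. Its interaction of 0.41 (SE 0.13, edgeR adjusted p 0.0343) was lost without fat-fed renin 1 or 5, fat-fed control 3 or 4, chow renin 1, 3 or 6, or chow control 1 or 2. Ankrd1, the stretch-responsive ankyrin repeat protein of the same list, missed the threshold: it was 1091 ± 535, 1404 ± 488, 811 ± 211 and 2695 ± 681 CPM over the 4 groups, and its interaction was 1.37 (SE 0.45, edgeR adjusted p 0.064). Ankrd1 was called by DESeq2 and in the edgeR fits without fat-fed renin 4 or chow control 2.

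The remaining genes of highest interaction concern adhesion, the cytoskeleton and enzymes. Integrin alpha 9 (Itga9), a matrix receptor, measured 56.0, 54.7, 52.3 and 40.6 CPM in chow control, 36.7 to 48.4 (median 43.3) in chow renin and 25.3 to 45.2 (median 37.9) in fat-fed control. In fat-fed renin it measured 118, 87.7, 56.5, 55.9 and 95 CPM, all above the other renin hearts and the fat-fed controls, and its lowest value was just under the highest chow control. The renin difference was -0.25 on chow and 1.14 on high fat, and the interaction was 1.38 (SE 0.26, edgeR adjusted p 0.000938). Enah, an actin-filament elongation protein, was 104 ± 17.7, 107 ± 7.89, 97.0 ± 13 and 209 ± 65.1 CPM over chow control, chow renin, fat-fed control and fat-fed renin. Its 5 fat-fed renin hearts (141 to 297 CPM) were above all others, and its interaction was 1.06 (SE 0.23, edgeR adjusted p 0.00318). The fucosidase Fuca2 went from 171 ± 41.6 CPM in fat-fed control to 324 ± 78.3 in fat-fed renin, and from 234 ± 33.1 to 213 ± 27.7 on chow, with an interaction of 1.06 (SE 0.25, edgeR adjusted p 0.00685). Clic5, an intracellular chloride channel protein, and Uck2, which phosphorylates uridine and cytidine, had interactions of 1.05 (SE 0.27, edgeR adjusted p 0.0146) and 1.03 (SE 0.26, edgeR adjusted p 0.0132), and both calls were lost without the 6 libraries of high atrial score. Klhdc8a had an interaction of 0.98 (SE 0.30, edgeR adjusted p 0.0393) that was lost without fat-fed renin 1 or 2, fat-fed control 1, 3 or 6, chow renin 1, 2, 3 or 6, or chow control 1, 2 or 3.

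Classical markers of a loaded heart other than Acta1 did not pass the test of the interaction. Beta-myosin heavy chain (Myh7), the slow fetal myosin, was 584, 459, 744 and 375 CPM in the chow control group, 295 to 2513 (median 1784) in chow renin, 190 to 608 (median 355) in fat-fed control, and 3686, 3305, 2158, 1026 and 1041 in fat-fed renin. Both renin groups reached above the hearts without renin, except chow renin 6, which had the 295 CPM. The renin difference of Myh7 was 1.59 (log2, SE 0.53, edgeR adjusted p 0.0571) on chow and 2.57 (SE 0.49, edgeR adjusted p 0.00371) on the high-fat diet, and the interaction was 0.98 (SE 0.69, edgeR adjusted p 0.441). As a share of Myh6 plus Myh7 TPM, Myh7 was 1.4% ± 0.543, 5.04% ± 2.81, 1.1% ± 0.504 and 7.83% ± 4.57 in the 4 groups (SD, n = 4, 6, 6 and 5). Alpha-myosin heavy chain (Myh6), the fast adult form, fell with renin by 0.25 on chow (edgeR adjusted p 0.0285) and by 0.30 on the high-fat diet (edgeR adjusted p 0.0102), with an interaction of -0.05 (SE 0.11, edgeR adjusted p 0.842). The natriuretic peptide genes Nppa and Nppb had interactions of 2.38 (SE 0.90, edgeR adjusted p 0.111) and 2.31 (SE 0.75, edgeR adjusted p 0.0582). Fat-fed renin hearts measured 1002, 694, 371, 113 and 576 CPM for Nppa and 630, 275, 107, 102 and 252 CPM for Nppb, a spread that overlapped every other group for Nppa and chow control and chow renin for Nppb. Of 6 natriuretic peptide pathway genes at 20 CPM or more, edgeR called 0 (7.89% of all 5561 genes were called), whereas DESeq2, run as an alternative, called both Nppa and Nppb. Nppb was also called with the clock score as a covariate and without fat-fed renin 3 or 4 or chow renin 2. An unadjusted p under 0.05 was reached by 1329 of the 5561 genes in the edgeR test.

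Calcineurin is the calcium-activated phosphatase that drives hypertrophic growth through NFAT factors. Rcan1, its inhibitor and a known NFAT target, was 64.4 ± 13.1, 71.1 ± 9.61, 57.5 ± 6.14 and 160 ± 94.7 CPM over chow control, chow renin, fat-fed control and fat-fed renin. The 5 fat-fed renin values were 314, 156, 86.0, 79.1 and 162 CPM, with fat-fed renin 1 far above the other 4. Its interaction was 1.33 (SE 0.38, edgeR adjusted p 0.0302), lost without chow control 1 or 3, chow renin 1 or 3, or fat-fed control 3, and without the 6 libraries of high atrial score. Rcan2, a related inhibitor, had an interaction of 0.33 (SE 0.10, edgeR adjusted p 0.0246), lost without fat-fed renin 1 or 2, chow renin 1, 3 or 5, or chow control 1 or 2. Ppp3ca, the catalytic subunit of calcineurin, went the other way. It was 64.2 ± 2.19 CPM in the chow control hearts, 84.5 ± 5.83 in chow renin, 65.2 ± 2.70 in fat-fed control and 64.6 ± 1.82 in fat-fed renin, and all 6 chow renin hearts (78.2 to 92.7 CPM) lay above the other 15. Its interaction was -0.41 (SE 0.07, edgeR adjusted p 0.000425). Brain also expresses Ppp3ca at a high level, and the chow renin libraries are those of high nervous score. The part of that score in this result was not tested apart from the covariate above, with which the call was lost. Of 10 genes in the calcineurin list, 2 were called higher and 1 lower, with 6.17% and 1.73% of all 5561 genes called so, and the median interaction was -0.04.

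Among 20 calcium handling genes at 20 CPM or more, 2 were called higher (against 6.17% of all) and 4 lower (against 1.73%), with a median of 0.06. Calsequestrin 2 (Casq2), the calcium store protein of the sarcoplasmic reticulum, measured 795, 839, 665 and 700 CPM in chow control. It ranged from 591 to 699 CPM (median 613) in chow renin and from 533 to 808 (median 736) in fat-fed control, and fat-fed renin hearts measured 1251, 1130, 781, 749 and 962 CPM. Its interaction was 0.72 (SE 0.17, edgeR adjusted p 0.00652), with every fat-fed renin heart above every chow renin heart. Slc8a1, the sodium-calcium exchanger, was named after its value was seen: its interaction of 0.84 (SE 0.26, edgeR adjusted p 0.0442) was lost without fat-fed renin 1, 2 or 5, fat-fed control 2, 3, 4 or 6, chow renin 1, 2, 3, 4 or 5, or chow control 1 or 2. Atp2a2, the calcium pump SERCA2, had an interaction of 0.13 (SE 0.16, edgeR adjusted p 0.695). The lower calls were Camk2b, Itpr1, Calm2 and Calm3, genes of calcium signalling that nervous tissue also expresses at a high level. Camk2b, a calcium and calmodulin dependent kinase subunit, was 35.5 ± 6.67 CPM in chow renin against 21.4 ± 2.92, 23.6 ± 2.63 and 19.6 ± 3.22 in chow control, fat-fed control and fat-fed renin, an interaction of -0.997 (SE 0.18, edgeR adjusted p 0.000566). Itpr1, an inositol trisphosphate receptor, was 42.5 ± 4.04 CPM in chow renin and 27.3 ± 2.80, 30.8 ± 2.69 and 32.1 ± 4.44 in the same other groups, an interaction of -0.58 (SE 0.13, edgeR adjusted p 0.00395). The calmodulin genes Calm2 and Calm3 (the latter named after its value was seen) had interactions of -0.34 (SE 0.10, edgeR adjusted p 0.022) and -0.28 (SE 0.08, edgeR adjusted p 0.0223), both lost without the 6 libraries of high atrial score, and that of Calm3 also without chow control 2. Of 19 ion channel and connexin genes 0 were called (7.89% of all were), with a median interaction of 0.02 and a smallest edgeR adjusted p of 0.0558.

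The matrix list holds collagens, other structural matrix proteins such as fibronectin, and enzymes that act on them. Of its 22 members at 20 CPM or more, 4 were called higher and 1 lower, against 6.17% and 1.73% of all 5561 genes. The interaction was positive in 21 of the 22, against 63.4% of all, and the median was 0.54 against 0.06. The summed level of the 27 members that passed the low count filter was 2887 to 4027 CPM in fat-fed renin, 1932 to 3473 in fat-fed control, 1968 to 2568 in chow renin and 1984 to 3004 in chow control. The 4 higher calls were Col4a1, Col4a2, Col8a1 and Loxl2. Col4a1 was 329, 342, 358 and 370 CPM in the chow control group, 276 to 391 (median 320) in chow renin, 302 to 408 (median 339) in fat-fed control and 788, 479, 376, 431 and 645 in fat-fed renin. Of the fat-fed renin hearts only that of 376 CPM lay within the range of fat-fed control and of chow renin, and the interaction was 0.77 (SE 0.21, edgeR adjusted p 0.0199). Col4a2, which shares a promoter region with Col4a1 and is paired with it in type IV collagen, had an interaction of 0.64 (SE 0.18, edgeR adjusted p 0.0255), lost without fat-fed renin 5, chow renin 1 or chow control 4. Col8a1, a short-chain vessel collagen, was 15.9 ± 2.89, 21.6 ± 4.25, 15.2 ± 2.67 and 47.1 ± 18.8 CPM, an interaction of 1.18 (SE 0.32, edgeR adjusted p 0.0211). Loxl2, a lysyl oxidase, was 21.3 ± 4.99, 18.73 ± 2.52, 20.6 ± 3.89 and 35.0 ± 10.3 CPM, an interaction of 0.95 (SE 0.25, edgeR adjusted p 0.0181). The calls of Col8a1 and Loxl2 were each lost without chow control 3. The fibrillar collagens did not pass, with interactions of 0.52 (SE 0.44, edgeR adjusted p 0.536) for Col1a1 and 0.73 (SE 0.43, edgeR adjusted p 0.34) for Col3a1. Without fat-fed control 6, Col3a1 was called, with an interaction of 1.11. Fn1, fibronectin, was the lower call and was named after its value was seen. It was 75 ± 16.7, 159 ± 22.8, 82.2 ± 21.4 and 90.7 ± 27.4 CPM, and its interaction of -0.94 (SE 0.28, edgeR adjusted p 0.035) was lost without fat-fed renin 1, 2 or 5, fat-fed control 3 or 6, chow renin 1 or 3, or chow control 1, 2 or 4.

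Of 17 matricellular and activated fibroblast genes at 20 CPM or more, 1 was called higher and 1 lower, against 6.17% and 1.73% of all 5561 genes, with a median of -0.03. Tgfb3, a growth factor that drives matrix synthesis, was 17.5 ± 1.09 CPM in chow renin and 27.0 ± 2.37 in fat-fed renin. Its interaction of 0.63 (SE 0.19, edgeR adjusted p 0.0393) held in 6 of 21 fits and was lost without fat-fed renin 1, 3, 4 or 5, fat-fed control 1, 2, 4 or 5, any of chow renin 2 to 6, or chow control 1 or 3. Periostin (Postn) and Cilp, known markers of activated cardiac fibroblasts, had fat-fed renin levels of 88.7 ± 30.3 and 48.4 ± 14.8 CPM against 35.2 ± 23.5 and 7.59 ± 6.85 in fat-fed control. Their interactions were 1.16 (SE 0.65, edgeR adjusted p 0.308) and 2.14 (SE 0.91, edgeR adjusted p 0.161). In both, chow control 3 stood apart from the other chow controls, with 49.2 CPM of Postn and 22.9 CPM of Cilp, which is also 1 of the libraries of high atrial score. Other libraries of high atrial score were fat-fed control 3, with 71.7 and 20.8 CPM of the 2 genes, and fat-fed renin 3, with 53.2 and 34.9. In chow renin 1, 3 and 5, Postn was 36.6, 45.4 and 21.3 CPM and Cilp 17.7, 22.9 and 8.71 CPM. Cilp was called with the atrial score as a covariate (interaction 2.47) and without the 6 libraries of high atrial score (2.28), and Postn in neither. Resting fibroblast markers gave 2 higher calls of 13 (Lamc1 0.56 and Cd34 0.44), against 6.17% of all genes. The call of Cd34 was lost without fat-fed renin 1, 2 or 5, fat-fed control 1, 2 or 5, chow renin 2, 4, 5 or 6, or chow control 3 or 4. The summed level of the 15 resting fibroblast markers that passed the low count filter was 2014 to 2374 CPM in fat-fed renin and 1823 to 3124 in fat-fed control.

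Against the background of 6.17% called higher, 6 of 26 heat shock and unfolded protein response genes passed upward and 0 downward, and the interaction was positive in 24 (against 63.4% of all), with a median of 0.25. Hspa4l, a cochaperone of Hsp70, was 21.4 ± 2.49, 19.8 ± 1.26, 17.8 ± 2.79 and 27.3 ± 5.65 CPM over chow control, chow renin, fat-fed control and fat-fed renin, an interaction of 0.73 (SE 0.17, edgeR adjusted p 0.00527). Hspb8, a small heat shock protein of selective autophagy, was 309 ± 11.6, 288 ± 26.7, 311 ± 44.5 and 422 ± 51.1 CPM, an interaction of 0.54 (SE 0.13, edgeR adjusted p 0.00785). The endoplasmic reticulum chaperones calreticulin (Calr) and Hsp90b1 fell with renin on chow, by 0.33 (edgeR adjusted p 0.00146) and 0.21 (edgeR adjusted p 0.041), and not detectably on the high-fat diet. Their interactions were 0.40 (SE 0.10, edgeR adjusted p 0.00797) and 0.34 (SE 0.09, edgeR adjusted p 0.0162). Both were lost without the 6 libraries of high atrial score, and that of Hsp90b1 also without fat-fed renin 1 or chow control 1. The other called members were Hspd1, a mitochondrial chaperonin, at 0.34 and Hspb1, a small heat shock protein, at 0.64, both named after their values were seen and both lost without the 6 libraries of high atrial score. The call of Hspd1 was lost without fat-fed renin 1 or 5, fat-fed control 3, chow renin 1 or 3, or chow control 1 or 2. That of Hspb1 was lost without fat-fed renin 1 or 5, fat-fed control 3 or 4, chow renin 3 or 6, or chow control 1, 2 or 3. Of 34 proteasome genes 1 was called (6.17% of all 5561 genes were called higher), Psme4, an activator cap, with an interaction of 0.49 (SE 0.16, edgeR adjusted p 0.0456) that was lost without fat-fed renin 1, 2 or 5, fat-fed control 1, 2, 3 or 6, chow renin 1, 3, 4, 5 or 6, or chow control 1 or 2.

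Of 15 tubulin and cytoskeleton genes at 20 CPM or more, 3 were called higher (against 6.17% of all) and 0 lower, and the interaction was positive in 14 (against 63.4% of all), with a median of 0.30. Desmin (Des), the intermediate filament that ties myofibrils together, was 1663 ± 33.0, 1623 ± 107, 1494 ± 80.9 and 1890 ± 164 CPM. Its 5 fat-fed renin hearts (1691 to 2074 CPM) lay above the 6 fat-fed controls (1371 to 1588 CPM), and its interaction of 0.37 (SE 0.09, edgeR adjusted p 0.00857) was lost without the 6 libraries of high atrial score. Tuba4a, an alpha-tubulin, differed through chow: it fell from 560 ± 131 CPM in chow control to 304 ± 32.6 in chow renin (log2 -0.88, SE 0.16, edgeR adjusted p 0.000373), while fat-fed control and fat-fed renin had 440 ± 40.7 and 411 ± 111 CPM. Its interaction of 0.78 (SE 0.22, edgeR adjusted p 0.0237) was lost without fat-fed renin 1 or chow control 1 or 2. Tubb4b, a beta-tubulin, had an interaction of 0.57 (SE 0.18, edgeR adjusted p 0.0428), lost without fat-fed renin 1 or 5, fat-fed control 2, 3 or 4, chow renin 1, 2, 3, 4 or 5, or chow control 1 or 2. Dusp3, a phosphatase that acts on MAP kinases, was 107 ± 2.77, 100 ± 7.17, 113 ± 8.49 and 146 ± 18.1 CPM, with an interaction of 0.47 (SE 0.10, edgeR adjusted p 0.00373). Tbx20, a heart transcription factor in the cardiomyocyte identity list, had an interaction of 0.56 (SE 0.16, edgeR adjusted p 0.0235), lost without fat-fed renin 1 or 2 or chow control 3.

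Of 33 genes of glucose uptake, glycolysis and glycogen at 20 CPM or more, 5 were called higher (against 6.17% of all) and 0 lower, and the interaction was positive in 25 (against 63.4% of all), with a median of 0.18. Hexokinase 1 (Hk1), which traps glucose in the cell, was 208, 221, 188 and 186 CPM in the chow control group, 155 to 171 (median 163) in chow renin, 141 to 170 (median 162) in fat-fed control and 200, 175, 166, 164 and 170 in fat-fed renin. Every chow control heart lay above every chow renin heart and every fat-fed control heart, and the 5 fat-fed renin hearts overlapped each of the other groups. The renin difference of Hk1 was -0.30 (log2, edgeR adjusted p 0.00202) on chow and 0.14 (edgeR adjusted p 0.144) on the high-fat diet, an interaction of 0.44 (SE 0.09, edgeR adjusted p 0.00154). Pfkp, a phosphofructokinase isoform, was 58.3 ± 6.88, 64.4 ± 8.22, 53.8 ± 3.80 and 115 ± 45.1 CPM, an interaction of 0.95 (SE 0.25, edgeR adjusted p 0.0185), lost without chow control 1. Gbe1, the glycogen branching enzyme, was 48.9 ± 4.01, 44.7 ± 3.39, 43.2 ± 6.05 and 55.1 ± 3.4 CPM, an interaction of 0.48 (SE 0.12, edgeR adjusted p 0.00997), lost without the 6 libraries of high atrial score. Ugp2, which makes the glucose donor of glycogen, had an interaction of 0.70 (SE 0.21, edgeR adjusted p 0.0346), lost without fat-fed renin 1, 2 or 5, fat-fed control 3 or 6, any chow renin but 2, or chow control 1, 2 or 3. Pgk1, a glycolytic kinase named after its value was seen, had an interaction of 0.31 (SE 0.10, edgeR adjusted p 0.0348), lost without fat-fed renin 1, 2 or 5, fat-fed control 3, chow renin 1, 3, 5 or 6, or chow control 1 or 2.

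Of 27 PPAR and fatty acid target genes at 20 CPM or more, 0 were called higher (against 6.17% of all) and 2 lower (against 1.73%), with a median of -0.13. The interaction was positive in 9 of the 27, against 63.4% of all. Slc27a1, a fatty acid transporter, was 220, 219, 226 and 269 CPM in the chow control group, 207 to 267 (median 233) in chow renin, 266 to 323 (median 285) in fat-fed control and 118, 149, 236, 243 and 138 in fat-fed renin. Renin lowered it on the high-fat diet, with all 5 fat-fed renin hearts below all 6 fat-fed controls (log2 -0.71, SE 0.15, edgeR adjusted p 0.00496), and gave a difference of 0.01 on chow. Its interaction of -0.71 (SE 0.21, edgeR adjusted p 0.0347) was lost without fat-fed renin 2 or 5, fat-fed control 3 or 6, chow renin 3, 4 or 6, or chow control 1, 2 or 3. Plin4, a lipid droplet coat protein, was 41.6 ± 1.29, 57.2 ± 12.4, 62.7 ± 15.6 and 41.9 ± 14.1 CPM, an interaction of -1.04 (SE 0.30, edgeR adjusted p 0.0326), lost without fat-fed renin 1, 2 or 5, fat-fed control 3 or 6, chow renin 1 or 2, or any chow control. Pdk4, which closes the pyruvate dehydrogenase gate, had an interaction of -0.38 (SE 0.29, edgeR adjusted p 0.473). Of 24 fatty acid oxidation genes 0 were called, where 7.89% of all 5561 genes were (median -0.14, smallest edgeR adjusted p 0.0832). Their interaction was positive in 5, against 63.4% of all. Of the 24, 7 fell with renin on the high-fat diet (9.03% of all 5561 genes did) and 0 on chow (7.07% did). Of 71 nuclear oxidative phosphorylation genes 0 were called (median -0.08, smallest edgeR adjusted p 0.0683), and the interaction was positive in 14, against 63.4% of all. Of the 71, 48 were lower with renin on the high-fat diet, where 9.03% of all 5561 genes were, and 12 lower with renin on chow, where 7.07% were. A count called on 1 diet and not on the other is no test of the difference, which for these lists is the interaction with 0 calls. Lists of 20 citric acid cycle, 13 mitochondrially encoded, 76 cytosolic ribosomal, 24 branched-chain amino acid and ketone and 24 antioxidant genes also had 0 calls in the interaction, with medians from -0.06 to -0.01. In the same order, 9, 4, 14, 9 and 10 of their members had a positive interaction, against 63.4% of all genes.

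Of 9 renin-angiotensin-aldosterone genes at 20 CPM or more, 1 was called, higher, against 6.17% of all genes. Ace, angiotensin-converting enzyme, was 67.1, 70.0, 80.1 and 58.8 CPM in chow control, 47.8 to 77.7 (median 61.7) in chow renin, 51.2 to 84.8 (median 62.4) in fat-fed control and 111, 103, 80.1, 77.2 and 98.5 in fat-fed renin. Fat-fed renin overlapped the top of the other groups in 2 of its 5 hearts. The interaction of Ace was 0.67 (SE 0.20, edgeR adjusted p 0.0298), lost without fat-fed renin 1, 2 or 5, chow renin 4, or chow control 2 or 3. The median of the list was -0.23, below the 0.06 over all 5561 genes, and 2 of the 9 members had a positive interaction.

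**Figure D4:**
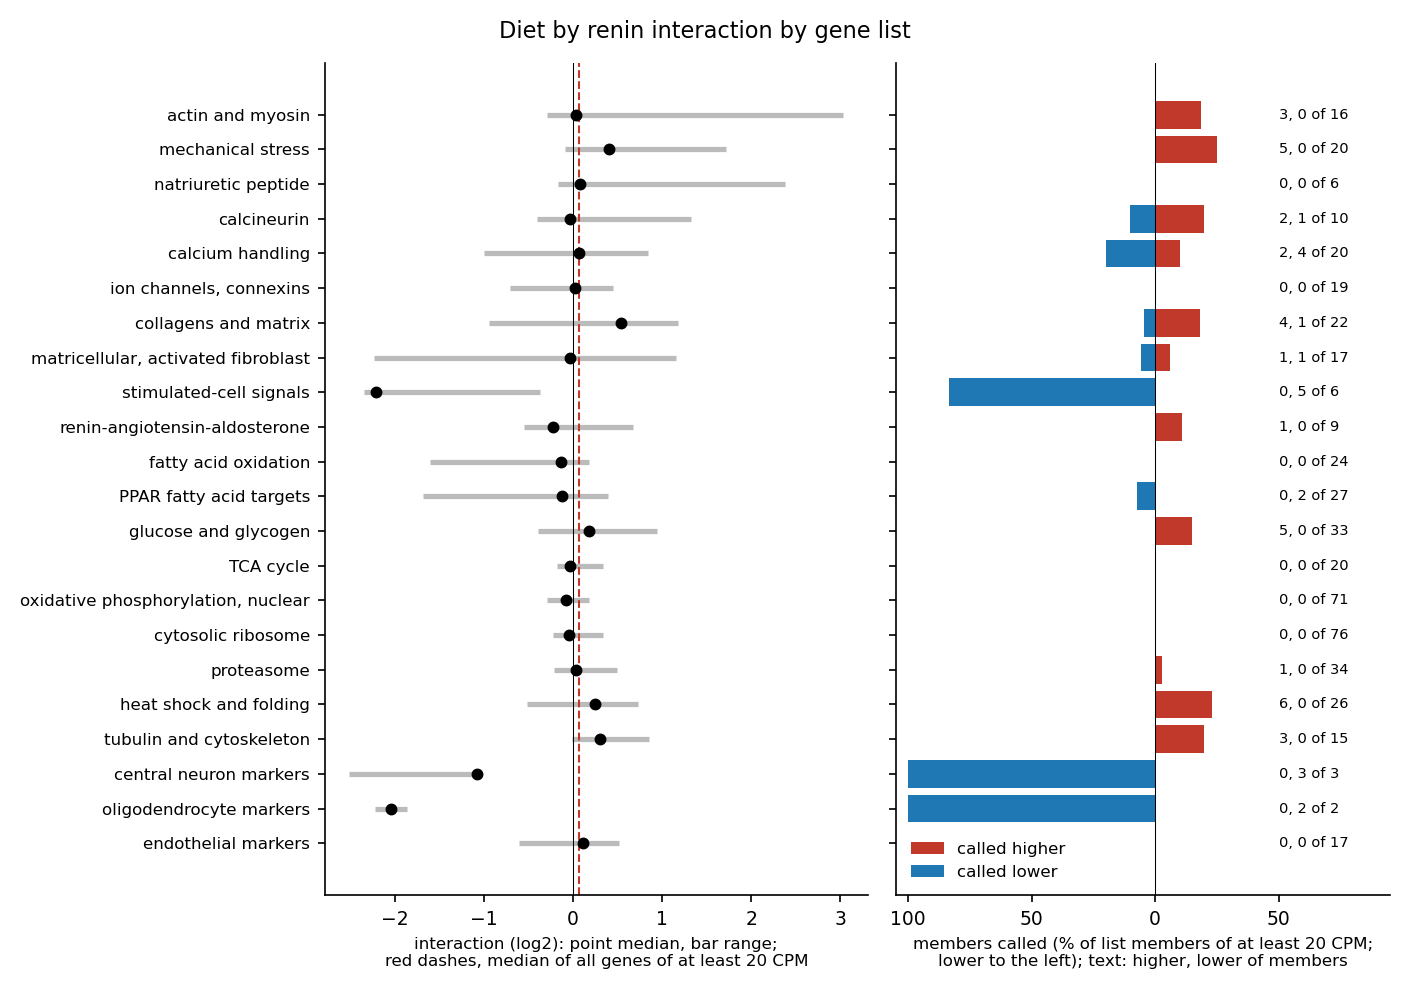
Left, log2 interaction of the members of at least 20 CPM of 22 gene lists (point, median; grey bar, lowest to highest member) with the median of all such genes as a dashed line. Right, the share of those members called higher (red, to the right) or lower (blue, to the left), with counts. Stimulated-cell and nervous lists lie far to the left, and mechanical stress and matrix lists have medians of 0.41 and 0.54.

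The lower calls were led by genes whose levels were highest in chow renin hearts, with Saa3, Spp1, Ptgs2, Ereg, Lif and Il1rl1 among them. Saa3, an acute-phase protein, had the smallest adjusted p of these. It (ENSMUSG00000040026, minus strand of chromosome 7, 46711998 to 46715700) measured 18.4, 17.5, 16.7 and 16.6 CPM in chow control, 72.5 to 80.3 (median 76.9) in chow renin, 16.3 to 19.7 (median 17.8) in fat-fed control and 14.8, 15.1, 14.9, 16.8 and 16.3 in fat-fed renin. All 6 chow renin hearts stood more than 50 CPM above every other heart and spread by 3.06 CPM (SD). The renin difference was 2.15 (log2, SE 0.06, edgeR adjusted p 2.6e-17) on chow and -0.20 (SE 0.06, edgeR adjusted p 0.0246) on the high-fat diet, an interaction of -2.35 (SE 0.08, edgeR adjusted p 2.11e-15). Osteopontin (Spp1), a matricellular cytokine, was 47.6 ± 5.03, 194 ± 19.2, 47.8 ± 5.89 and 41.5 ± 2.36 CPM, an interaction of -2.23 (SE 0.12, edgeR adjusted p 1.09e-11). Ptgs2, the inducible prostaglandin synthase COX-2, was 17.5 ± 1.41, 75.6 ± 5.28, 17.4 ± 1.84 and 16.2 ± 2.0 CPM, an interaction of -2.22 (SE 0.13, edgeR adjusted p 1.16e-11). Ereg, an epidermal growth factor receptor ligand, Lif, a cytokine of the interleukin 6 family, and Il1rl1, the receptor of interleukin 33, had interactions of -2.20, -2.16 and -2.27 (edgeR adjusted p 1.19e-10, 1.24e-08 and 1.29e-06). In each of them the 6 chow renin hearts lay above the other 15, with lowest chow renin values of 46.0, 41.7 and 41.4 CPM. These 6 genes kept their calls in 21 of 21 fits with a library left out and with the nervous score as a covariate. The other 3 genes of at least 20 CPM called with that covariate were Plau, Errfi1 and Gm13394, named after their values were seen.

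**Figure D5:**
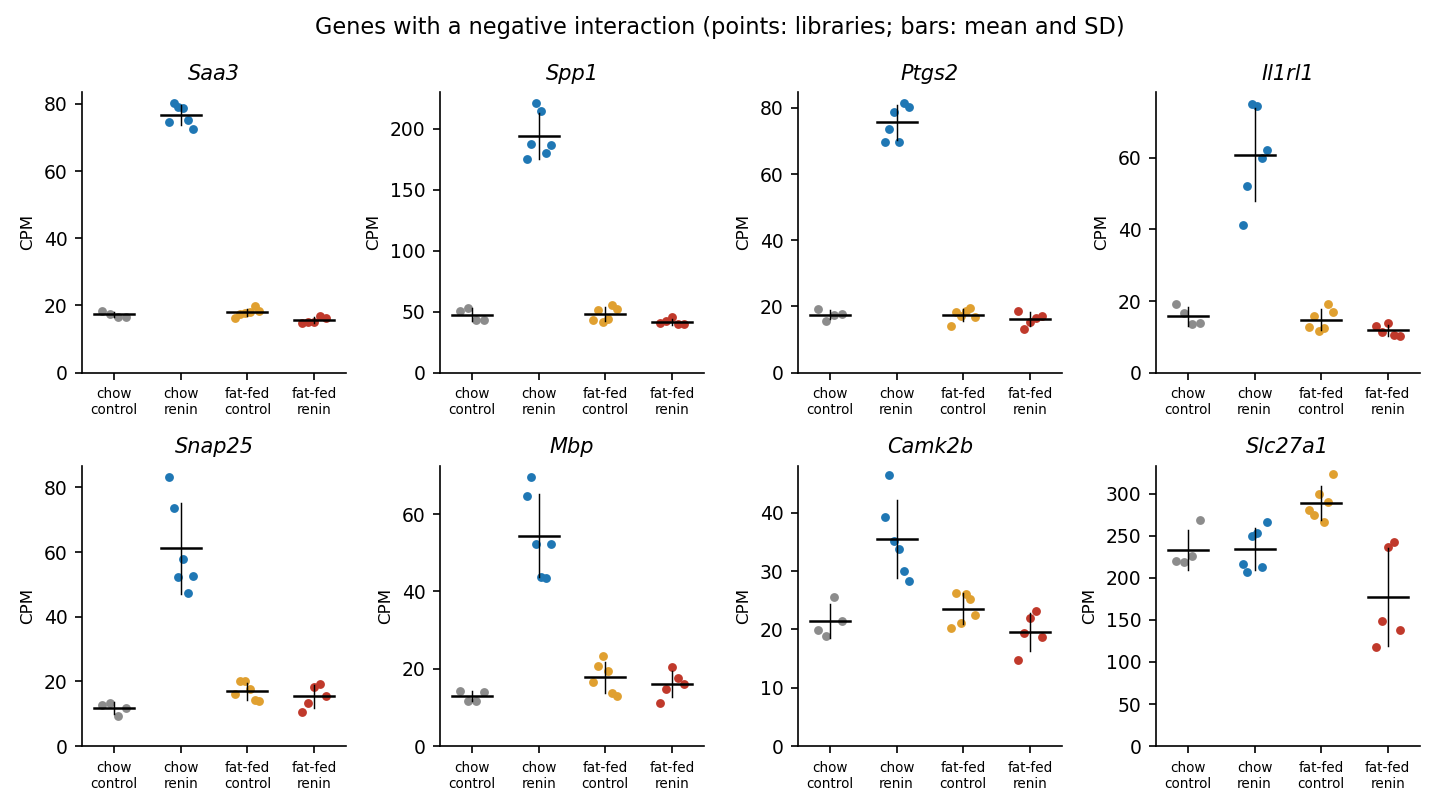
CPM (vertical axes, linear from 0) of 8 genes with a negative interaction in each library by group, with the group mean (horizontal bar) and SD (vertical bar). In 7 of the 8, all 6 chow renin libraries lie above the other 15; Slc27a1 is instead low in fat-fed renin.

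Of the stimulated-cell list, which was drawn up with these results known and so gives no independent evidence of its direction, 5 of 6 members at 20 CPM or more were called lower, against 1.73% of all 5561 genes. All 5 had group means under 20 CPM in the other 3 groups and reached the floor through chow renin alone, so the floor itself selected members high in that group and the count is a description. The same held for 14 of the 96 lower calls, for 0 of the 343 higher ones through any group, and for 18 of all 5561 genes. Of its 25 members under 20 CPM that passed the filter 16 were called lower and 0 higher, against 10.5% and 1.4% of all genes under 20 CPM. Cxcl5, a neutrophil chemokine, was 7.43 ± 1.02, 35.3 ± 3.28, 8.96 ± 0.528 and 7.67 ± 0.917 CPM, and Grem1, an antagonist of bone morphogenetic proteins, was 6.31 ± 0.476, 31.9 ± 2.79, 7.48 ± 0.925 and 6.69 ± 0.645 CPM. Their interactions were -2.47 (SE 0.13, edgeR adjusted p 9.66e-12) and -2.49 (SE 0.13, edgeR adjusted p 9.66e-12). Fosl1, an AP-1 subunit, was 0.80 ± 0.228, 5.16 ± 0.947, 1.08 ± 0.287 and 1.25 ± 0.205 CPM, an interaction of -2.48 (SE 0.30, edgeR adjusted p 3.95e-06). Macrophage and antigen presentation genes had 0 calls of 8 at 20 CPM or more, where 7.89% of all genes were called. The summed level of the 27 members of that list that passed the filter was 362 to 470 CPM in chow renin against 415 to 571 in chow control. The windows before Saa3 and Lif are shown as the leading gene of the set and as its member with most motif matches, at chr7:46715677-46715926 (minus) and chr11:4257318-4257567 (plus), from the same RefSeq table and with the same 4 motifs.
Saa3: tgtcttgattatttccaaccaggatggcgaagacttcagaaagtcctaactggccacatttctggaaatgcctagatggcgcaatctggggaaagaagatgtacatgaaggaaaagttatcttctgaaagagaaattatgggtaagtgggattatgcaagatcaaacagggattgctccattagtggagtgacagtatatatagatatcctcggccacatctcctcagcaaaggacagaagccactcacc
Lif: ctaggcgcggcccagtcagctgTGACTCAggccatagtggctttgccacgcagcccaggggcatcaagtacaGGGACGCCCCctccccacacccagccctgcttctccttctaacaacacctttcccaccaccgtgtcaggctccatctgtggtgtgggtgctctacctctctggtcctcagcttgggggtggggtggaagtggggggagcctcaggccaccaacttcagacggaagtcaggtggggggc
Saa3 held none of the 4 motifs in this window, and Lif held an AP-1 match 228 bases and a kappaB site 178 bases before its start. Of the 12 genes of lowest interaction 7 had a window, of which 1 held an AP-1 match, 1 an M-CAT, 1 a kappaB site and 0 a CArG box. Over all RefSeq genes, counted in the same way, the shares were 7.82%, 14.4%, 8.23% and 1.62%. With 7 windows these counts cannot be told apart from those shares.

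The other set of lower calls was of nervous tissue genes. Snap25, a synaptic vesicle fusion protein, was 12.7, 13.4, 9.29 and 11.8 CPM in chow control, 47.3 to 83.1 (median 55.4) in chow renin, 13.9 to 20.003 (median 16.8) in fat-fed control and 10.6, 13.4, 18.3, 19.2 and 15.5 in fat-fed renin. Its renin difference was 2.38 (log2, SE 0.19, edgeR adjusted p 1.74e-08) on chow and -0.14 (SE 0.17, edgeR adjusted p 0.65) on the high-fat diet, and its interaction of -2.51 (SE 0.25, edgeR adjusted p 1.07e-06) was the lowest of the called protein-coding genes of at least 20 CPM. Slc1a2, the glutamate transporter of astrocytes, Kif5a, a neuronal kinesin, and Mbp, a myelin protein, had interactions of -2.47, -2.25 and -2.22 (edgeR adjusted p 7.68e-07, 1.07e-06 and 3.33e-06). Snhg11, a transcript known from neurons, had -2.46 (edgeR adjusted p 1.07e-06). Camk2a, a kinase of excitatory synapses, and Slc17a7, a vesicular glutamate transporter, had -1.07 and -1.02 (edgeR adjusted p 2.63e-05 and 0.0129). In every one of these 7 genes the lowest chow renin heart lay above the highest of the other 15. Of 15 central neuron markers 3 reached 20 CPM and all 3 were called lower, as were all 12 under 20 CPM. Of 9 oligodendrocyte markers 2 of 2 and 7 of 7 were called lower, and of 10 astrocyte markers 1 of 2 and 5 of 8. Over all genes 1.73% were called lower at 20 CPM or more and 10.5% below. The 2 oligodendrocyte genes and 1 of the 3 neuron genes reached 20 CPM through chow renin alone. The summed neuron markers were 152 to 168 CPM in the chow control group, 336 to 521 in chow renin, 155 to 205 in fat-fed control and 123 to 205 in fat-fed renin, and the summed oligodendrocyte markers 38.3 to 42.9, 108 to 180, 38.9 to 61.0 and 32.8 to 58.7. Schwann cell markers, those of peripheral nerve, gave 0 calls of 5 under 20 CPM, and the summed levels of the whole list were 62.4 to 78.6, 77 to 106, 59.7 to 98.1 and 70.1 to 82.3 CPM.

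Under 20 CPM the same form held for most lower calls: in 995 of the 1015 (98.0%) chow renin had the highest group mean, and in 757 every chow renin heart lay above every other heart, as in 877 of all 9655 such genes (9.08%). Their median interaction was -1.95, from 1.82 on chow and -0.15 on high fat. The 135 higher calls under 20 CPM had a median interaction of 0.58, and fat-fed renin had the highest mean in 103 of them. These calls too were selected by their interaction, which favours such group means, so the counts are a description.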

How the data were processed

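Total RNA of 21 hearts was sequenced. Transcripts were quantified with Salmon 1.10.2 against GRCm38 (mm10), per the submitters' processing notes, which also list DESeq2 1.40.2. The authors made estimated counts per transcript with Salmon and deposited them for each library, beside TPM values. Of 119215 transcripts, 97.951% matched a gene of the annotation, and the rest held 0.854 to 0.925% of reads. They were added up by gene and then rounded, and the planned count tests were kept although the files hold estimated counts. Deposited TPM values were used for the isoform shares alone.

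edgeR 4.0.16 (R 4.3.3) kept 15216 of 23718 genes by its expression filter (99.96% of reads), scaled by TMM (0.886 to 1.09) and fitted 1 term per group by robust quasi-likelihood over all 21 libraries. The interaction and its parts were F tests adjusted by Benjamini-Hochberg over all genes, called under 0.05. The SE is the log2 value divided by the root of F. CPM are TMM-scaled. Libraries are taken as separate mice, and their number limits the precision. The method was tested on simulated data. Named genes were the 12 highest and 12 lowest interactions among called protein-coding genes of at least 20 CPM, up to 4 of smallest p in each of 42 lists, and a fixed set; exceptions are marked, and some genes the rule picks are not reported here. Members and lists were chosen with earlier results of these data known. Alternatives were DESeq2 1.42.0, other scaling, filters, weights (limma 3.58.1), thinning, score covariates and left-out libraries. Genes with near-identical copies may share reads.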

Additional observations from a re-analysis of the deposited data

Results flagged for a closer look

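The renin difference itself differed between the diets, by the edgeR quasi-likelihood test of the interaction, in the called genes whose interaction the report gives. The positive log2 interactions of 1 or more were Acta1 3.04, Xirp2 1.72, Itga9 1.38, Rcan1 1.33, Synpo2l 1.31, Col8a1 1.18, Enah 1.06, Fuca2 1.06, Clic5 1.05 and Uck2 1.03. Those between 0 and 1 were Klhdc8a 0.98, Loxl2 0.95, Actc1 0.66, Ttn 0.42, Lmod3 0.56, Flnc 0.82, Casq2 0.72, Rcan2 0.33, Col4a1 0.77, Col4a2 0.64, Tgfb3 0.63, Ace 0.67, Hk1 0.44, Gbe1 0.48, Pfkp 0.95, Ugp2 0.70, Hspa4l 0.73, Hspb8 0.54, Calr 0.40, Hsp90b1 0.34, Des 0.37, Tuba4a 0.78, Tubb4b 0.57, Tbx20 0.56, Psme4 0.49, Dusp3 0.47, Lamc1 0.56, Cd34 0.44, Cryab 0.41, Slc8a1 0.84, Pgk1 0.31, Hspd1 0.34 and Hspb1 0.64. The negative ones of -2 or lower were Snap25 -2.51, Slc1a2 -2.47, Snhg11 -2.46, Saa3 -2.35, Il1rl1 -2.27, Kif5a -2.25, Spp1 -2.23, Mbp -2.22, Ptgs2 -2.22, Ereg -2.20, Lif -2.16, Cxcl5 -2.47, Grem1 -2.49 and Fosl1 -2.48, and the remaining negative ones were Camk2b -0.997, Itpr1 -0.58, Calm2 -0.34, Ppp3ca -0.41, Plin4 -1.04, Slc27a1 -0.71, Camk2a -1.07, Slc17a7 -1.02, Fn1 -0.94 and Calm3 -0.28.

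In groups of 4 to 6 libraries some genes had 1 library apart from the rest, by the gap to its nearest neighbour as a share of the group's range. Chance marks about 1 in 20 groups in this way. Fat-fed renin 4 was the library apart for Col1a1 at 272 CPM. Fat-fed control 1 held the separate value of Hspa4l at 23.1 CPM. Fat-fed control 3 stood apart in Cilp at 20.8 CPM. Fat-fed control 6 was the library apart for Camk2a at 67.2 CPM, Myh6 at 24933 CPM, Col3a1 at 426 CPM and Atp2a2 at 7593 CPM. Chow renin 2 held the separate value of Hsp90b1 at 285 CPM and Cxcl5 at 42 CPM. Chow renin 6 stood apart in Atp2a2 at 13361 CPM and Slc8a1 at 265 CPM. Chow control 1 was the library apart for Grem1 at 7.02 CPM. Chow control 3 held the separate value of Rcan1 at 83.8 CPM, Flnc at 526 CPM, Itpr1 at 23.2 CPM, Tbx20 at 74.0 CPM, Postn at 49.2 CPM, Cilp at 22.9 CPM, Col1a1 at 155 CPM and Fn1 at 99.9 CPM. Chow control 4 stood apart in Slc27a1 at 269 CPM. Chow control 3 and fat-fed control 3 are among the 6 libraries of high atrial score, and the part of that score in these values was not tested.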

How the results depend on the processing

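The counts of at least 20 CPM were 439 genes, 343 higher and 96 lower. With the nervous score as a covariate they were 9, 0 and 9 (all genes 25, 0 and 25), with an unadjusted p under 0.05 in 230. With the clock score they were 667, 519 and 148, and a fit of only these genes gave 169 with 70 higher. Without the 6 libraries of high atrial score they were 189 with 117 higher (all genes 1049 with 184 higher). The higher counts were 518 (all genes 727) under limma voom with sample weights, 223 (312) with no filter and 202 (281) with upper-quartile factors. Leaving out 1 library gave 223 to 664 called, 135 to 528 higher and 76 to 136 lower, and 195 to 731 higher over all genes. DESeq2 gave 394 higher and 134 lower. The fit without the atrial libraries and an adjustment over the genes of at least 20 CPM (253 higher, 77 lower) were chosen after the data were seen. The labels do not say that a replicate number marks a shared source. Deviations of same-number libraries correlated at -0.36 to 0.71 (median 0.13, 28 pairs), those of other pairs had a median of -0.03 (136 pairs), and 5 of 21 libraries correlated best with one of their own number, so the numbers were not taken as pairs. Replicate 3 had a high atrial score in all 4 groups. The replicate block gave 359 higher and 101 lower, and with it Rcan1, Col8a1, Klhdc8a, Ace, Plin4 and Calm3 were not called. The cause of these shifts was not tested. Among called genes named in the report, those lost with upper-quartile factors were Ttn, Rcan2, Tgfb3, Ace, Ugp2, Tubb4b, Psme4, Cd34, Cryab, Slc8a1 and Pgk1, and those lost with no filter were Rcan1, Klhdc8a, Rcan2, Tgfb3, Plin4, Slc27a1, Ugp2, Tuba4a, Tubb4b, Psme4, Fn1, Slc8a1, Pgk1 and Hspb1. Signs turned with the nervous covariate for Rcan1 (-0.39), Klhdc8a (-0.47), Camk2b (0.21), Col4a1 (-0.43), Col4a2 (-0.45), Plin4 (0.48), Tubb4b (-0.0599), Dusp3 (-0.0502), Slc17a7 (0.65), Myh7 (-1.02), Myh6 (0.31), Col3a1 (-0.49), Pdk4 (0.0571) and Slc8a1 (-0.26). Left out in turn, single libraries gave Myh6 -0.0915 to 0.0045, the last without chow control 3. The median SE was 0.34 for lower calls under 20 CPM, 0.169 for higher calls there, and 0.139 and 0.12 for lower and higher calls at 20 CPM or more; how much of it comes from depth was not tested.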
